A study of Mus musculus with 8 samples.

Results

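Imprinted growth genes were examined in thymic epithelial cells (TECs) of the mouse embryo. The 9 genes were *H19*, *Igf2*, *Igf2r*, *Dlk1*, *Meg3*, *Peg3*, *Mest*, *Grb10* and *Plagl1*, taken by symbol from the 55450 genes of the expression table and followed across all 8 libraries. All libraries came from E17 embryos that carried both a tdTomato reporter knocked into *Ccl21a* and a RANK-Venus reporter of *Tnfrsf11a*, the gene for RANK, and no population free of these reporters was analysed here. CD45-EpCAM+ TECs were sorted by reporter into 3 libraries of CCL21+RANK- cells, 3 of CCL21-RANK+ cells and 2 of CCL21-RANK- cells. These populations are called CCL21+ TECs, RANK+ TECs and reporter-negative TECs from here on. CCL21 is the chemokine that draws thymocytes into the medulla, and RANK is the receptor through which medullary TECs are driven toward the display of self-antigens. The study calls its replicates biological, without saying whether each library came from separate embryos or pools, and p-values measure the spread between these libraries. The libraries held 42751858 to 71625319 counts, of which the 9 genes together took 0.0616% to 0.123%.

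An imprinted gene is transcribed mainly from the chromosome inherited from one parent. Paternally expressed genes such as *Igf2*, *Dlk1*, *Peg3*, *Mest* and *Plagl1* largely promote fetal growth, whereas maternally expressed genes such as *H19*, *Igf2r*, *Meg3* and *Grb10* largely restrain it or lie as noncoding partners beside a growth gene. IGF2 signals through the IGF1 receptor and the insulin receptor, and the receptor encoded by *Igf2r* clears it from the cell surface. Reads were not assigned to a parental chromosome, so that only the summed RNA level of each gene was measured. On GRCm38, with GENCODE M21 gene bounds, *H19* lies at chr7:142575529-142578143 and *Igf2* at chr7:142650766-142666816, both on the minus strand, and *Peg3* lies elsewhere on the same chromosome at chr7:6703892-6730431, also on the minus strand. *Dlk1* (chr12:109452823-109463336) and *Meg3* (chr12:109541001-109571726) share the plus strand, as do *Mest* (chr6:30723547-30748465) and *Plagl1* (chr10:13060504-13131694) on their own chromosomes. *Igf2r* (chr17:12682406-12769664) and *Grb10* (chr11:11930508-12038683) are on the minus strand. *H19* and *Meg3* are annotated as long noncoding RNAs and the other 7 as protein-coding. In sorted bulk samples, fewer cells that express a gene and less RNA per cell cannot be told apart.

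*Plagl1*, *Mest*, *Igf2r*, *Meg3* and *Dlk1* were called higher in RANK+ than in CCL21+ TECs. A call required an adjusted p under 0.05 from the quasi-likelihood test of edgeR, a fold change over 1.5 and a mean over 1 RPKM (counts divided by the exon length in kb and by the library total in units of 1000000 counts) in the higher population. The sequences before their starts are shown because these genes moved in the same direction and because their promoters differ widely in CpG content, the substrate of the DNA methylation that marks imprinted genes. They come from RefSeq on GRCm38.p6, which had a window for 8 of the 9 genes, and are written 5′ to 3′ on the strand of the gene, with CpG dinucleotides in capitals. Each stretch covers the 250 bases before a RefSeq start, except that of *Plagl1*, which stops after 109 bases, where GENCODE M21 annotates an exon. *Plagl1*, *Mest* and *Meg3* have more than 1 annotated start, the starts shown for *Plagl1* and *Mest* lie inside the GENCODE bounds of these genes, and which start these cells used was not measured.
Plagl1 chr10:13090582-13090690 (plus strand): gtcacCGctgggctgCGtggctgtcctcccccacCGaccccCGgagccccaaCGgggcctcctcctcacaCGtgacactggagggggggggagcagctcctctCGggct
Mest chr6:30737800-30738049 (plus strand): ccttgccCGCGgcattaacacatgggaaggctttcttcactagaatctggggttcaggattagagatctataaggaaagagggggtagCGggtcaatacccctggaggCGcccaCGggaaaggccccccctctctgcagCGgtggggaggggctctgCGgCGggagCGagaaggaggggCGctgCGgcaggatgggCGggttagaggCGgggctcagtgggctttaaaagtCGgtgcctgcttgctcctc
Igf2r chr17:12769707-12769956 (minus strand): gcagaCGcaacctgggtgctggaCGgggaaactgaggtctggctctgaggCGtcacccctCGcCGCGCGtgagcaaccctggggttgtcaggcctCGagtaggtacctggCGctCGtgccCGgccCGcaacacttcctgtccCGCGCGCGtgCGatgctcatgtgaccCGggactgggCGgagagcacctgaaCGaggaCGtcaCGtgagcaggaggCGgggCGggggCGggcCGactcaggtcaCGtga
Meg3 chr12:109540746-109540995 (plus strand): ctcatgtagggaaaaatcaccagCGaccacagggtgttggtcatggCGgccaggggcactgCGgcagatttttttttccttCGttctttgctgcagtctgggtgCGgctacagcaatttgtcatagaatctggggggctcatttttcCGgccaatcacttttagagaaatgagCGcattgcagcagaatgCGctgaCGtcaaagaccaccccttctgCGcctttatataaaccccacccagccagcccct
Dlk1 chr12:109452573-109452822 (plus strand): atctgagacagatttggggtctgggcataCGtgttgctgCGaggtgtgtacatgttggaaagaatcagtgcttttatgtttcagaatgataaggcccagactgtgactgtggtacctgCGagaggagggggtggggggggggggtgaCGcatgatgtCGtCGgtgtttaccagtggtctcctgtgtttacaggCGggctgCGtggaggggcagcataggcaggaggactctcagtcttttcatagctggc

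Over the full 250 bases before the starts shown, *Igf2r* held 27 CpGs, *Plagl1* 19, *Mest* 14, *Meg3* 10 and *Dlk1* 8, while another start of *Mest* had 7 before it and another of *Meg3* had 0. Of the CpGs of *Plagl1*, 7 lie in the 109 bases printed. Of all 32851 windows of the same length, 8.6% held at least as many CpGs as *Igf2r*, 19.7% at least as many as *Plagl1* and 43.0% at least as many as *Dlk1*, and the median window held 6. The genes that rose in RANK+ TECs thus had both CpG-rich and ordinary sequence before their starts. The letters TATAAA, searched on both strands, were found before the start shown for *Meg3*, not before its other start, and not in the windows of *Plagl1*, *Mest*, *Igf2r* or *Dlk1*, and 12.4% of all windows held them. The letters GGGCGG on either strand were found in the 250 bases before *Plagl1*, *Mest* and *Igf2r*, and 32.7% of all windows held them. For *Plagl1* they lie past the 109 bases printed, where an exon is annotated. Among the genes that were not called in that comparison, *Grb10* had 40 CpGs before one start and 8 before the other, *Peg3* had 8, and *Igf2* had 6, 22, 10 and 1 before its 4 starts. Neither methylation nor factor binding was measured.

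The sorted cells carried the markers of TECs. *Epcam*, the surface protein used in the sort, was between 49.5 and 156 RPKM in the 8 libraries, and *Foxn1*, the transcription factor required for TEC development, was between 50.7 and 105 RPKM. The 9 TEC markers, led by *Krt18*, summed to 5003, 5004 and 5778 RPKM in CCL21+ libraries, 1820, 2012 and 1662 RPKM in RANK+ libraries and 4546 and 4828 RPKM in reporter-negative libraries. Of the 9, 7 were called lower in RANK+ than in CCL21+ TECs, among them *Foxn1* (1.92-fold), *Krt18* (5.44-fold) and *Psmb11*, the thymoproteasome subunit of cortical TECs (13.7-fold), and *Epcam* and *Aire* were called higher, beside 15.4% of all genes tested for each direction. Against reporter-negative TECs 6 were called lower in RANK+ TECs, beside 15.1% of all genes, and 3 higher, beside 14.4%. *Ccl21a* was at 561, 346 and 305 RPKM in CCL21+ libraries, 152, 95.9 and 78.2 RPKM in RANK+ libraries and 6.89 and 8.88 RPKM in reporter-negative libraries. *Tnfrsf11a* was at 93.1 to 111 RPKM in RANK+ libraries, 8.78 to 10.3 RPKM in CCL21+ libraries and 2.26 to 2.62 RPKM in reporter-negative libraries. Each sort gene was thus highest in the population named for it, although *Ccl21a* RNA was not absent from RANK+ TECs and its level is uncertain because near-identical gene copies share its reads. *Aire*, which drives the display of self-antigens in medullary TECs, was at 94.1 to 131 RPKM in RANK+ libraries and at most 0.81 RPKM elsewhere.

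Markers of other cell types were detected, at summed levels that differed between populations. The 12 mesenchymal markers summed to 51.0, 25.8 and 33.9 RPKM in the RANK+ libraries, 12.4, 9.13 and 8.84 RPKM in the CCL21+ libraries and 7.94 and 6.65 RPKM in the reporter-negative libraries. Between CCL21+ and RANK+ TECs, 5 of these 12 markers were called higher in RANK+ TECs and 1 lower, and each marker count in this comparison stands beside the same 15.4%. *Col1a1*, the most abundant of them, was at 24.0, 7.43 and 15.4 RPKM in RANK+ libraries, and *Pdgfrb*, *Lum* and *Cspg4* were at 4.06 to 6.82, 3.81 to 5.6 and 2.09 to 3.37 RPKM there and at most 0.175, 0.224 and 0.243 RPKM elsewhere. Of the other listed mesenchymal markers, *Pdgfra* and *Prrx1* were no higher than 0.262 and 0.0442 RPKM in any library, and *Twist1* was at 0 in RANK+ replicate 2. The 13 haematopoietic markers, led by *Rag1*, summed to 33.4, 13 and 21.6 RPKM in RANK+ libraries, 11.0, 4.43 and 5.83 RPKM in CCL21+ libraries and 3.61 and 3.22 RPKM in reporter-negative libraries, and 5 of 13 were called higher in RANK+ than in CCL21+ TECs. *Dntt*, *Ptcra*, *Adgre1* and *C1qa* each were at 0 in at least 1 library outside the RANK+ population. The 8 endothelial markers, led by *Tek*, summed to 6.41, 4.01 and 2.68 RPKM in RANK+ libraries and stayed between 0.525 and 0.928 RPKM elsewhere, with *Emcn* no higher than 0.042 RPKM in any library and 2 of the 7 tested called higher in RANK+ than in CCL21+ TECs. In all of these lists the RANK+ libraries were above the others, and RANK+ replicate 1 was the highest. The part of these cell types in the values below was not tested.

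Markers of parathyroid, cycling and red cells varied as well. The 5 parathyroid markers, led by *Chga*, summed to 7248, 1813 and 2029 RPKM in CCL21+ libraries, 36.2, 22.2 and 24.6 RPKM in RANK+ libraries and 56.3 and 57.5 RPKM in reporter-negative libraries, and all 5 were called higher in CCL21+ TECs than in both other populations, beside 4.35% of all genes tested against reporter-negative TECs. The 8 proliferation markers, led by *Pcna*, summed to 58.2, 51.6 and 64.0 RPKM in CCL21+ libraries, 136, 183 and 163 RPKM in RANK+ libraries and 104 and 131 RPKM in reporter-negative libraries, and all 8 were called higher in RANK+ and 7 in reporter-negative than in CCL21+ TECs, beside 3.66% of all genes in the latter comparison. The 7 erythroid markers, led by *Hbb-bs*, summed to 6.61, 164 and 59.4 RPKM in CCL21+ libraries, 186, 286 and 301 RPKM in RANK+ libraries and 453 and 57.1 RPKM in reporter-negative libraries. All 3 RANK+ sums lay above the CCL21+ sums, while the reporter-negative sums lay on either side of the RANK+ ones. *Alas2*, an enzyme of heme synthesis, was called higher in RANK+ than in CCL21+ TECs, the only one of the 7 that was called in any comparison, and *Slc4a1*, an anion exchanger of the red cell membrane, was at 0 in CCL21+ replicates 1 and 3. The part of these lists in the values below was likewise not tested.

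*H19* and *Grb10* were the most abundant of the 9 genes per length, and *Meg3* and *Dlk1* were among the least abundant outside RANK+ TECs. In CCL21+ TECs the mean level fell from *H19* at 36.4 RPKM and *Grb10* at 24.1 RPKM to *Peg3* and *Igf2r*, both at 12.3 RPKM, and *Igf2* at 8.28 RPKM, with *Mest*, *Plagl1*, *Dlk1* and *Meg3* below 1 RPKM. Replicates of *Peg3* and *Igf2r* overlapped, as did neighbours among the 4 lowest genes. In reporter-negative TECs the order was *H19* (36.5 RPKM), *Grb10* (33.4), *Igf2r* (12.9), *Peg3* (7.15), *Igf2* (3.56), *Plagl1* (1.39), *Mest* (0.666), *Meg3* (0.461) and *Dlk1* (0.314), and only the first and the last pair of neighbours overlapped. In RANK+ TECs *Grb10* (35.1 RPKM), *H19* (32) and *Igf2r* (27.6) led, *Igf2* (15.9) and *Plagl1* (12.5) followed, and *Peg3* (9.1), *Dlk1* (6.56), *Mest* (3.69) and *Meg3* (1.14) were lower. Here only *Peg3* and *Meg3* stood apart from the gene above them.

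**Figure D1:**
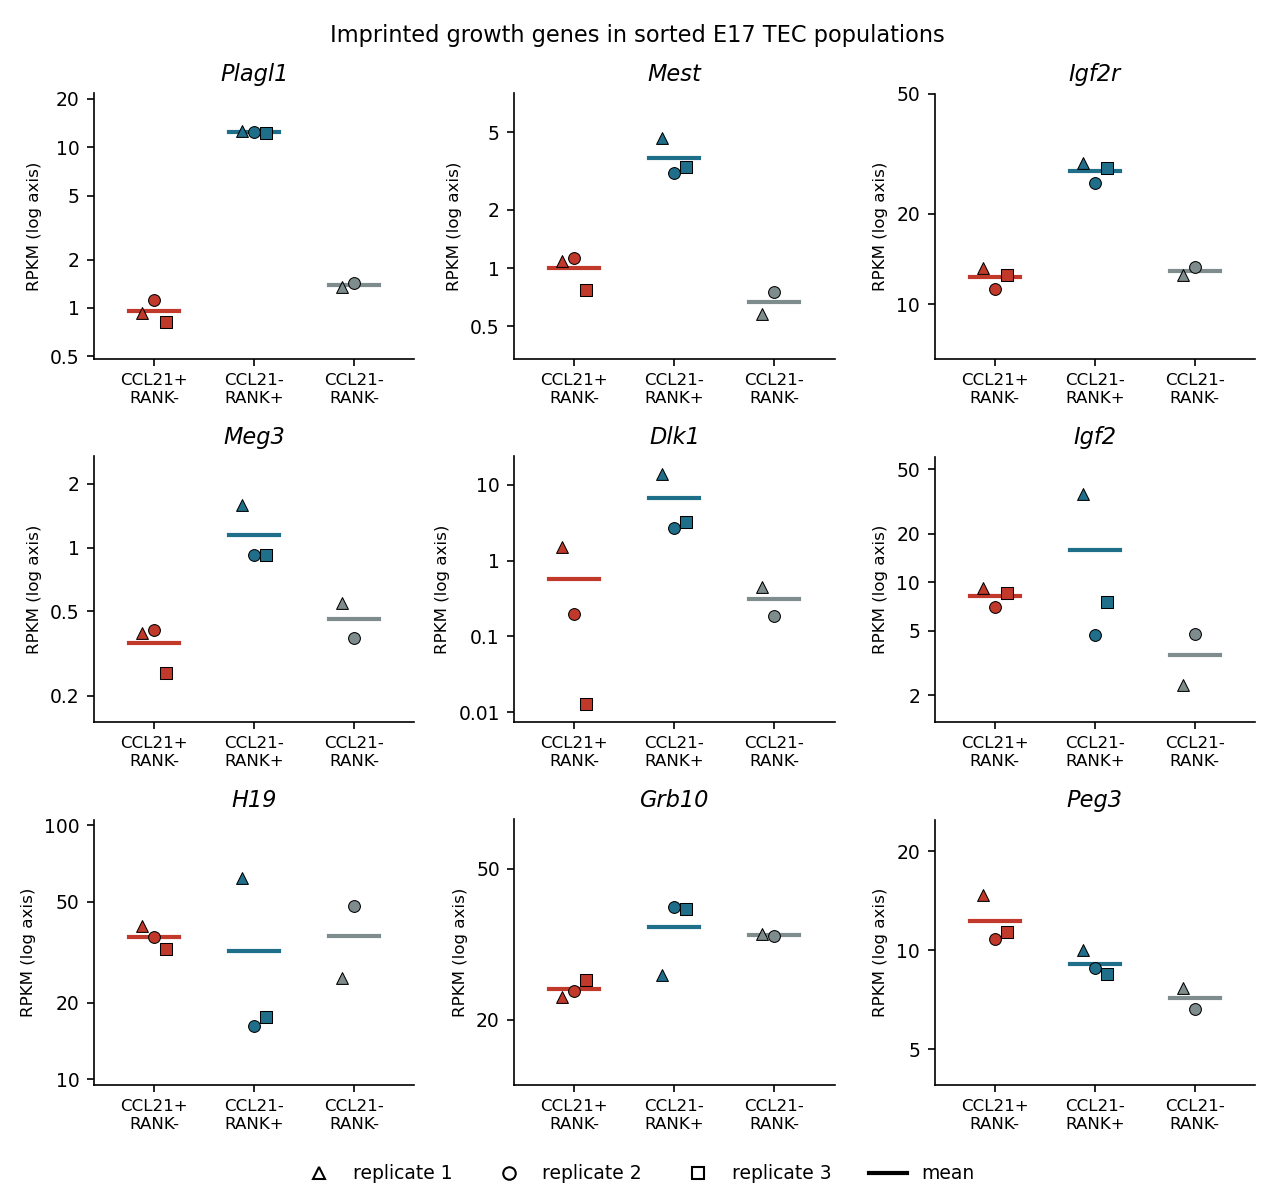
Level of each imprinted growth gene in RPKM (log axis, scaled per gene) in the 3 TEC populations, with 1 point per library, the point shape giving the replicate number and the bar the mean. *Plagl1* lay between 12.2 and 12.7 RPKM in the 3 RANK+ libraries and at or below 1.43 RPKM in the other 5, whereas *H19*, *Igf2* and *Dlk1* were far higher in RANK+ replicate 1 than in replicates 2 and 3.

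To ask how medullary TECs that make CCL21 and those that express RANK differ in these genes, CCL21+ and RANK+ TECs were compared first. Of the 9 genes, 5 were called higher in RANK+ TECs and none in CCL21+ TECs. Of the 21451 genes tested, 30.9% were called in this comparison and 15.4% were called higher in RANK+ TECs. All 9 genes passed the expression filter, and their median log2 fold change of CCL21+ over RANK+ TECs was -1.05, against -0.11 over all genes tested. For 7 of the 9 genes the libraries of these populations did not overlap, as for 59.8% of all genes tested. Without RANK+ replicate 1 the genes called higher in RANK+ TECs were *Plagl1*, *Mest*, *Igf2r* and *Grb10*, and *H19* and *Peg3* were called higher in CCL21+ TECs.

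*Plagl1* encodes a zinc finger transcription factor that regulates a network of imprinted growth genes, and it gave the clearest difference. Its level was 12.7, 12.5 and 12.2 RPKM in RANK+ libraries, 0.924, 1.12 and 0.821 RPKM in CCL21+ libraries and 1.35 and 1.43 RPKM in reporter-negative libraries. The 3 RANK+ libraries were high and close together, and no library of another population came near them. The log2 fold change of CCL21+ over RANK+ TECs was -3.58 ± 0.16 (SE, n = 3 and 3, adjusted p = 4.39e-07 from edgeR), a 12.0-fold difference. Over reporter-negative TECs, the level in RANK+ TECs was 8.3-fold higher (log2 fold change of 3.05 ± 0.19, SE, n = 3 and 2, adjusted p = 1.96e-06 from edgeR).

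*Mest*, which encodes a hydrolase-like protein of the endoplasmic reticulum made mainly in fetal tissues, was at 4.67, 3.09 and 3.31 RPKM in RANK+ libraries. It was at 1.09, 1.13 and 0.773 RPKM in CCL21+ libraries and at 0.579 and 0.754 RPKM in reporter-negative libraries. RANK+ replicate 1 was the highest, and the RANK+ libraries overlapped neither other population. The log2 fold change of CCL21+ over RANK+ TECs was -1.74 ± 0.25 (SE, adjusted p = 0.000273 from edgeR), and that of RANK+ over reporter-negative TECs was 2.35 ± 0.29 (SE, adjusted p = 0.000146 from edgeR). *Mest* shares sequence at its 3′ end with *Copg2* on the opposite strand, a gene with 47227 counts over the 8 libraries. Both library kits named for these data keep the strand, but the setting used in counting was not given in the sources used here, and the level of *Mest* is uncertain to that extent.

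*Igf2r*, the clearance receptor for IGF2, differed by a smaller but steady factor. Its level was 29.5, 25.2 and 28.3 RPKM in RANK+ libraries, 13.2, 11.2 and 12.5 RPKM in CCL21+ libraries and 12.5 and 13.3 RPKM in reporter-negative libraries. The RANK+ libraries lay above all others, and those of the other populations overlapped each other. The level in RANK+ TECs was 2.06-fold that in CCL21+ TECs (log2 fold change of CCL21+ over RANK+ TECs -1.05 ± 0.09, SE, adjusted p = 1.36e-05 from edgeR) and 1.97-fold that in reporter-negative TECs (log2 fold change 0.98 ± 0.11, SE, adjusted p = 5.97e-05 from edgeR).

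*Meg3* is a long noncoding RNA transcribed from the maternal chromosome beside *Dlk1*. It was at 1.58, 0.925 and 0.925 RPKM in RANK+ libraries, 0.397, 0.41 and 0.257 RPKM in CCL21+ libraries and 0.547 and 0.375 RPKM in reporter-negative libraries. All 3 RANK+ libraries were above the other 5, with replicate 1 the highest, although the level was low throughout. The log2 fold change of CCL21+ over RANK+ TECs was -1.54 ± 0.29 (SE, adjusted p = 0.00171 from edgeR). Without RANK+ replicate 1 the test was still passed (-1.29, adjusted p = 0.00468 from edgeR), but the RANK+ mean was 0.925 RPKM and *Meg3* was no longer called in either comparison with RANK+ TECs. RANK+ over reporter-negative TECs gave 1.17 ± 0.33 (SE, adjusted p = 0.0161 from edgeR), a call that was also lost without reporter-negative replicate 2 (0.86, adjusted p = 0.145 from edgeR).

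*Dlk1*, which encodes a transmembrane ligand-like inhibitor of differentiation, varied most between replicates of CCL21+ TECs. It was at 13.8, 2.66 and 3.25 RPKM in RANK+ libraries, 1.51, 0.196 and 0.0128 RPKM in CCL21+ libraries and 0.443 and 0.185 RPKM in reporter-negative libraries. The lowest of these values rested on 4 counts. The RANK+ libraries overlapped no other, yet replicate 1 was 4.23 times the next in its population, and CCL21+ replicate 1, the library with the highest parathyroid sum, was 7.72 times the next in its own. The log2 fold change of CCL21+ over RANK+ TECs was -3.32 ± 1.14 (SE, adjusted p = 0.0325 from edgeR), and the call was lost without RANK+ replicate 1 (-2.27, adjusted p = 0.124 from edgeR) or without CCL21+ replicate 2 (-3.0, adjusted p = 0.0999 from edgeR). Without CCL21+ replicate 1 it was -5.82 (adjusted p = 0.00271 from edgeR). RANK+ over reporter-negative TECs gave 4.20 ± 1.42 (SE, adjusted p = 0.0332 from edgeR), which was lost without RANK+ replicate 1 (3.14, adjusted p = 0.0862 from edgeR), without reporter-negative replicate 1 (5.04, adjusted p = 0.1 from edgeR) and without reporter-negative replicate 2 (3.65, adjusted p = 0.184 from edgeR).

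*Igf2*, the fetal growth factor itself, and *H19*, the noncoding RNA that lies 72.6 kb away on chromosome 7 and shares enhancers with it, did not follow the genes above. *Igf2* overlaps *Gm49394* on its own strand and *Igf2os* on the other, which held 271.99 and 177 counts over the 8 libraries. *Igf2* was at 35.3, 4.71 and 7.57 RPKM in RANK+ libraries, 9.27, 7.04 and 8.53 RPKM in CCL21+ libraries and 2.33 and 4.79 RPKM in reporter-negative libraries. *H19* was at 62.1, 16.2 and 17.6 RPKM in RANK+ libraries, 40.2, 36.3 and 32.6 RPKM in CCL21+ libraries and 25 and 48.1 RPKM in reporter-negative libraries. For both genes RANK+ replicate 1 was the highest of all libraries, at 4.66 times the next RANK+ library for *Igf2* and 3.53 times for *H19*, while replicates 2 and 3 of that population lay at or below most CCL21+ libraries.

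Between CCL21+ and RANK+ TECs neither gene passed the test. The log2 fold change of CCL21+ over RANK+ TECs was -0.77 for *Igf2* (95% interval from -2.08 to 0.54, adjusted p = 0.296 from edgeR) and 0.35 for *H19* (95% interval from -0.63 to 1.32, adjusted p = 0.531 from edgeR). Without RANK+ replicate 1 the value for *Igf2* turned to 0.51 (adjusted p = 0.136 from edgeR), and that for *H19* became 1.19 and passed the test (adjusted p = 0.00198 from edgeR). The direction for *Igf2* and the call for *H19* were thus set by 1 library. Over reporter-negative TECs, RANK+ TECs were called higher in *Igf2* (2.01 ± 0.70, SE, adjusted p = 0.038 from edgeR), although replicates overlapped. Without RANK+ replicate 1 this fell to 0.73 (adjusted p = 0.0623 from edgeR), and the call was also lost without either reporter-negative library, without CCL21+ replicate 2 or 3, or when only the libraries compared were fitted, with adjusted p from 0.0518 to 0.21 in edgeR.

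The ratio of *H19* to *Igf2* needs no scaling between libraries. It varied less than either gene among RANK+ and among reporter-negative libraries, and slightly more than either among CCL21+ libraries. It was 4.34, 5.16 and 3.82 in CCL21+ libraries, 1.76, 3.45 and 2.32 in RANK+ libraries and 10.7 and 10 in reporter-negative libraries, each as RPKM over RPKM. The 3 populations did not overlap, and RANK+ replicate 1 had the lowest ratio while having the highest level of both genes. On the log2 scale the ratio averaged 2.14 ± 0.22 (SD, n = 3) in CCL21+ libraries, 1.27 ± 0.49 (SD, n = 3) in RANK+ libraries and 3.37 ± 0.07 (SD, n = 2) in reporter-negative libraries. An exact two-sided permutation test gave p = 0.1 for each of the 3 pairs of populations, which is the smallest value that 3 against 3 or 3 against 2 libraries can give, so that no pair could pass.

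**Figure D2:**
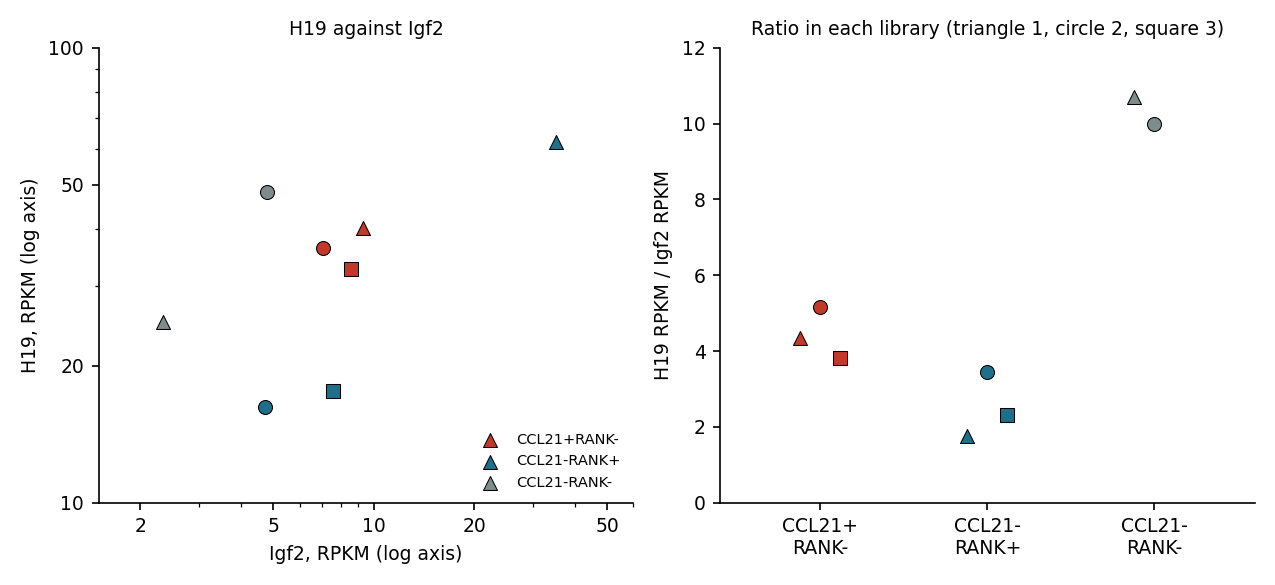
Left, *H19* against *Igf2* in RPKM (log axes) with 1 point per library, coloured by population. Right, the ratio of *H19* to *Igf2* RPKM in each library, which lay at 10 and 10.7 in reporter-negative TECs, from 3.82 to 5.16 in CCL21+ TECs and from 1.76 to 3.45 in RANK+ TECs.

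The *H19* transcript is also the precursor of a microRNA, miR-675, whose mature forms are shown because they are a part of *H19* known to act on other RNAs. The sequences are from RefSeq on GRCm38.p6, chromosome 7, minus strand, 22 bases each, with the seed (bases 2 to 8) in capitals. Mature microRNAs were not measured in these libraries, and the *Mir675* entry itself held 2.88 counts over the 8 libraries, so that the *H19* levels above concern the long transcript.
miR-675-5p: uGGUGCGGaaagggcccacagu
miR-675-3p: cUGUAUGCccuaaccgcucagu

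*Grb10*, which encodes an adaptor that inhibits insulin and IGF receptor signalling, was at 26.2, 39.7 and 39.3 RPKM in RANK+ libraries, 22.9, 23.8 and 25.5 RPKM in CCL21+ libraries and 33.7 and 33.2 RPKM in reporter-negative libraries. The CCL21+ libraries were the lowest, and RANK+ replicate 1 was only just above them. The log2 fold change of CCL21+ over RANK+ TECs was -0.43 (95% interval from -0.83 to -0.04, adjusted p = 0.0637 from edgeR), and it passed the test in 7 of 9 other settings, among them the size factors of DESeq2 (-0.51, adjusted p = 0.0222 from edgeR). Without RANK+ replicate 1 (-0.64, adjusted p = 0.000654 from edgeR) or without the 3 libraries numbered 1 (-0.60, adjusted p = 0.00171 from edgeR) the fold change was past the threshold as well. Over reporter-negative TECs the log2 fold change of CCL21+ TECs was -0.47 (95% interval from -0.92 to -0.03, adjusted p = 0.168 from edgeR). Between RANK+ and reporter-negative TECs it was -0.04 (95% interval from -0.49 to 0.41), with a sign that flipped under the size factors of DESeq2 (0.09).

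*Peg3*, a zinc finger gene of the paternal chromosome, was highest in CCL21+ TECs. It was at 14.7, 10.8 and 11.4 RPKM in CCL21+ libraries, 10, 8.83 and 8.47 RPKM in RANK+ libraries and 7.67 and 6.64 RPKM in reporter-negative libraries. No pair of populations overlapped, and CCL21+ replicate 1, the library with the highest parathyroid sum, was the highest. Over RANK+ TECs the log2 fold change of CCL21+ TECs was 0.56 ± 0.14 (SE, adjusted p = 0.00805 from edgeR), a fold change of 1.48 that was under the threshold of 1.5. It was past the threshold, and *Peg3* was called higher in CCL21+ TECs, without CCL21+ replicate 3 (0.66, adjusted p = 0.00655 from edgeR) or without RANK+ replicate 1 (0.59, adjusted p = 0.0126 from edgeR).

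CCL21+ and reporter-negative TECs, which differ in the *Ccl21a* reporter, were compared next. *Peg3* was the 1 of the 9 genes called, higher in CCL21+ TECs, where 8.02% of all tested genes were called and 4.35% were called higher in CCL21+ TECs. Its log2 fold change was 0.78 ± 0.16 (SE, n = 3 and 2, adjusted p = 0.0144 from edgeR), and the call was lost without reporter-negative replicate 2 (0.61, adjusted p = 0.164 from edgeR). *Plagl1* was lower in every CCL21+ library than in either reporter-negative library, by a log2 fold change of -0.53 that missed the test (95% interval from -0.90 to -0.15, adjusted p = 0.0756 from edgeR). For 5 of the 9 genes the libraries did not overlap, as for 38.8% of all genes tested. The count of calls was 2 without CCL21+ replicate 2, with *Plagl1* added, or without RANK+ replicate 1, with *Igf2* added. It fell without reporter-negative replicate 2, which leaves 1 library in that population, and calls over all genes tested fell as well. The intervals were narrow for *Igf2r* (-0.30 to 0.17) and wide for *H19* (-1.06 to 1.11), *Igf2* (-0.29 to 2.76) and *Dlk1* (-1.95 to 3.69). For *Mest* the interval ran from -0.02 to 1.22 and for *Meg3* from -1.09 to 0.35.

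Between RANK+ and reporter-negative TECs, 6 of the 9 genes were called and all 6 were higher in RANK+ TECs. The 6 were *Plagl1*, *Mest*, *Igf2r*, *Meg3*, *Dlk1* and *Igf2*, with the values given above. Of all tested genes, 29.5% were called in this comparison and 14.4% were called higher in RANK+ TECs. The median log2 fold change of the 9 genes was 1.17, against 0.06 over all genes tested. For 6 of the 9 genes the libraries did not overlap, as for 65.8% of all genes tested. Without reporter-negative replicate 2, which leaves 1 library in that population, fewer of the 9 genes and fewer of all genes tested were called. Without RANK+ replicate 1, *Plagl1*, *Mest* and *Igf2r* were called higher in RANK+ TECs and *H19* lower. *Peg3* (0.22, 95% interval from -0.14 to 0.58), *Grb10* and *H19* (-0.32, 95% interval from -1.40 to 0.75) did not pass, and *H19* passed without RANK+ replicate 1 (-1.16, adjusted p = 0.00378 from edgeR). This comparison shares its RANK+ libraries with the first, and the 2 are therefore not separate evidence.

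**Figure D3:**
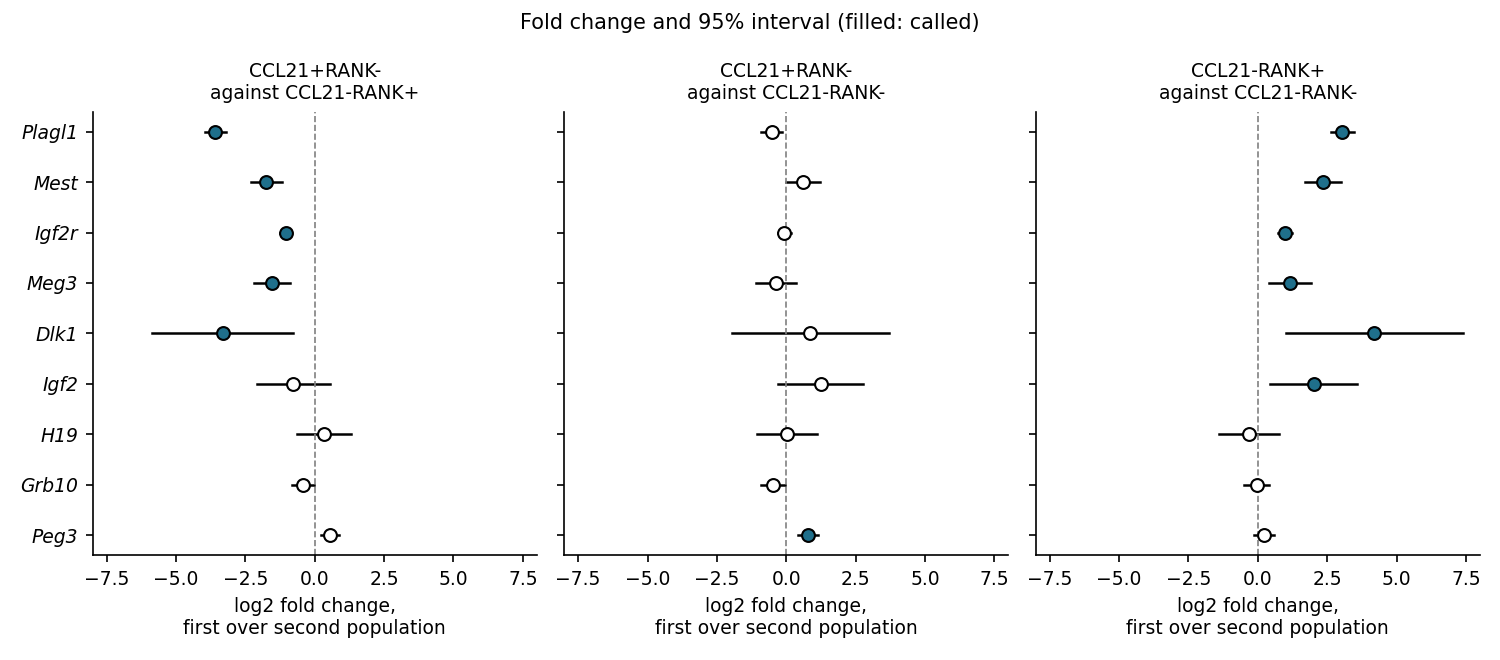
Log2 fold change of each gene in the 3 comparisons, first over second population as named above each panel, with the 95% interval as a line. Filled points passed all 3 thresholds of a call. In both comparisons with RANK+ TECs *Plagl1* combined a large change (-3.58 and 3.05) with a narrow interval, and *Dlk1* had the widest interval.

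Imprinted genes lie in clusters, and the listed imprinted genes within 1 Mb of each of the 9 genes were examined next. Beside *Igf2r* on chromosome 17 (12682406 to 12769664, GRCm38), *Airn*, the paternally expressed antisense RNA that silences the cluster, overlaps *Igf2r* and was at 1.03, 0.671 and 0.884 RPKM in RANK+ libraries and 0.0792 to 0.221 RPKM elsewhere. It passed the test (log2 fold change of CCL21+ over RANK+ TECs -2.66, adjusted p = 0.000705 from edgeR) but not the level threshold. *Airn* and *Igf2r* were thus both highest in RANK+ TECs, with the limit that overlapping opposite strands were separated only as far as the counting used the strand. *Slc22a3*, an organic cation transporter 174.7 kb from *Igf2r*, was at 4.19, 1.84 and 2.31 RPKM in RANK+ libraries and at most 0.0362 RPKM elsewhere (log2 fold change -6.93 ± 0.53, SE, adjusted p = 5.02e-06 from edgeR). *Slc22a2*, the third gene of the cluster, held too few counts to be tested.

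Around *Dlk1* and *Meg3*, which lie 77.7 kb apart on chromosome 12, the other noncoding RNAs of the maternal chromosome followed *Meg3*. *Rian* was at 1.81, 1.11 and 0.918 RPKM in RANK+ libraries and 0.193 to 0.655 RPKM elsewhere, and was called higher in RANK+ than in CCL21+ TECs (log2 fold change of CCL21+ over RANK+ TECs -1.97 ± 0.32, SE, adjusted p = 0.000705 from edgeR) and than in reporter-negative TECs (1.04, adjusted p = 0.0354 from edgeR). *Mirg* passed the same test in both comparisons (adjusted p = 0.00713 and 0.0308 from edgeR) at levels under 1 RPKM. *Rtl1*, a retrotransposon-derived gene of the paternal chromosome, was at 0.343, 0.242 and 0.397 RPKM in RANK+ libraries and at 0 in both reporter-negative libraries, at least 95.7-fold lower against a floor of 3 counts over the population. *Dio3*, which inactivates thyroid hormone, was at 0.163, 0 and 0.542 RPKM in RANK+ libraries and at 0 in all 3 CCL21+ libraries. The genes of both parental chromosomes in this cluster were therefore highest on average in RANK+ TECs, at low levels.

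The ratio of *Meg3* to *Dlk1* was 0.115, 0.347 and 0.284 in RANK+ libraries, 1.23 and 2.02 in reporter-negative libraries and 0.263, 2.09 and 20 in CCL21+ libraries. The last range is as wide as it is because *Dlk1* itself varied 118-fold among those libraries. RANK+ and reporter-negative libraries did not overlap (exact two-sided permutation test, p = 0.1, the smallest possible), whereas CCL21+ libraries overlapped both.

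On chromosome 7, the growth inhibitor gene *Cdkn1c*, 880.2 kb from *H19*, was the most abundant imprinted neighbour. It was at 314, 84.1 and 122 RPKM in RANK+ libraries, 37.1, 22.6 and 26.1 RPKM in CCL21+ libraries and 49.3 and 62.0 RPKM in reporter-negative libraries. Replicate 1 was again the highest RANK+ library, and here all 3 were above the other populations (log2 fold change of CCL21+ over RANK+ TECs -2.45 ± 0.40, SE, adjusted p = 0.000683 from edgeR). *Kcnq1*, a potassium channel gene, was at 4.18, 1.47 and 1.94 RPKM in RANK+ libraries and at most 0.111 RPKM elsewhere (-4.84 ± 0.58, SE, adjusted p = 8.71e-05 from edgeR). *Kcnq1ot1*, the antisense RNA within it, went the other way, with a log2 fold change of 0.57 that passed the test but not the fold threshold (adjusted p = 0.0312 from edgeR). *Slc22a18* was called higher in RANK+ TECs (-1.50, adjusted p = 0.016 from edgeR), *Tssc4* (0.23) was not called, and *Phlda2* was under 1 RPKM in every library. *Ascl2* was highest in reporter-negative TECs, at 4.45 and 3.66 RPKM against 0.721 to 1.93 RPKM in the other libraries.

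The neighbours of the remaining genes did not move with them in the same way. *Copg2*, which overlaps *Mest*, fell where *Mest* rose, with 13, 14.7 and 13.4 RPKM in RANK+ libraries against 22.1, 19.6 and 25.1 RPKM in CCL21+ libraries (log2 fold change of CCL21+ over RANK+ TECs 0.81 ± 0.11, SE, adjusted p = 0.000155 from edgeR). *Klf14*, 207.6 kb from *Mest*, was also called lower in RANK+ TECs (2.71, adjusted p = 0.000798 from edgeR). *Ddc*, the aromatic amino acid decarboxylase gene 32.4 kb from *Grb10*, was at 6.62, 0.818 and 1.05 RPKM in RANK+ libraries and at most 0.158 RPKM elsewhere (-5.18 ± 1.08, SE, adjusted p = 0.0028 from edgeR), whereas *Grb10* was not called. This contrast depended on RANK+ replicate 1. Without that library the RANK+ mean of *Ddc* was under the 1 RPKM required of a call, and *Grb10* was called. *Usp29* and *Zim1*, beside *Peg3*, did not exceed 0.138 and 0.419 RPKM in any library and were not called.

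**Figure D4:**
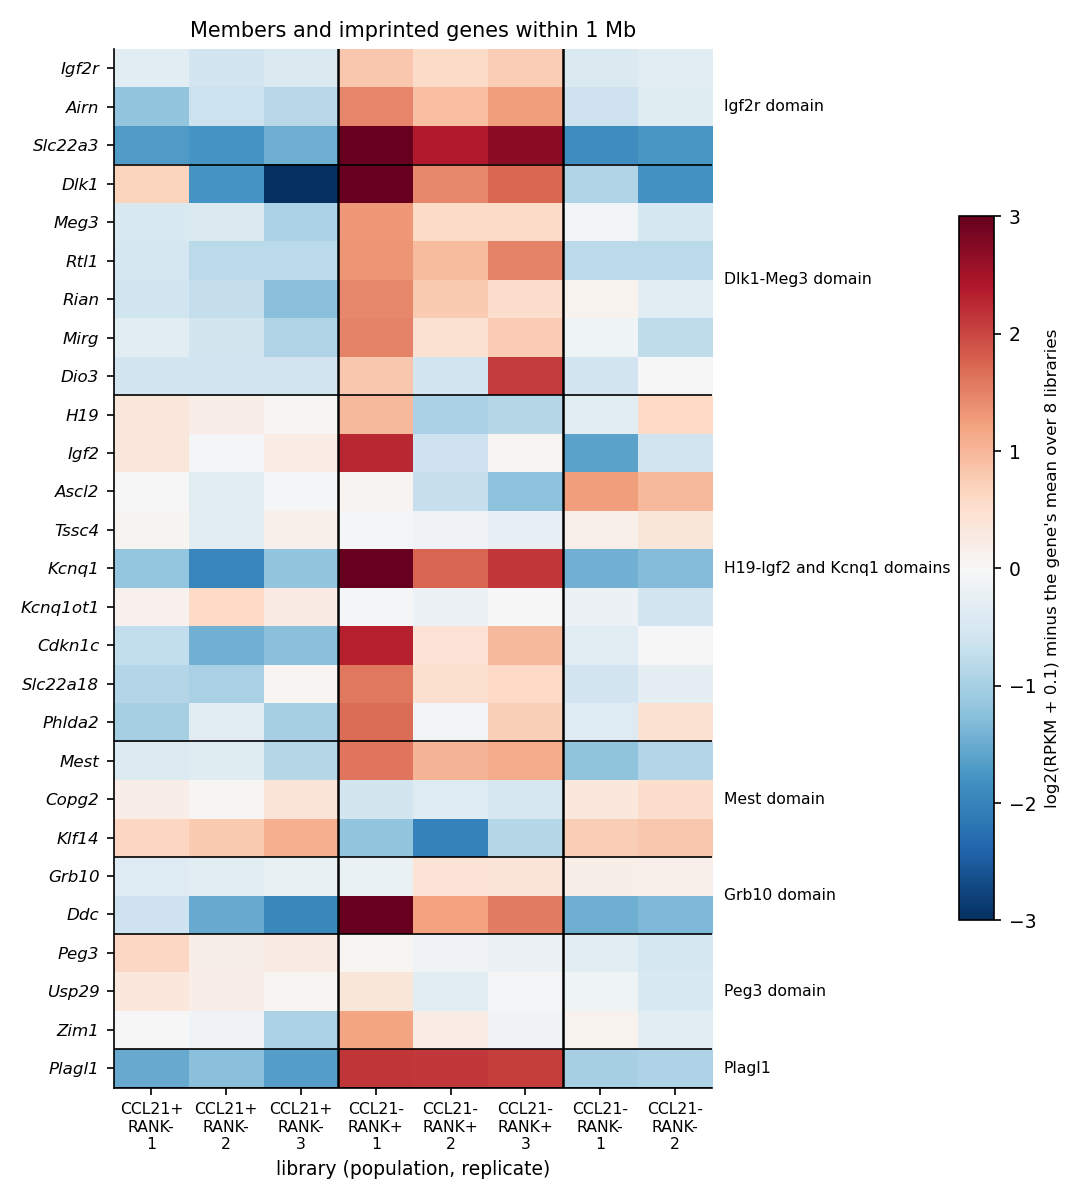
Heat map of the imprinted growth genes and their tested imprinted neighbours within 1 Mb (the rows, grouped by chromosomal cluster) in the 8 libraries (the columns). Colour gives log2(RPKM + 0.1) minus the mean of that gene over the libraries and saturates at 3 in either direction. *Igf2r* with *Airn* and *Slc22a3*, and the *Dlk1* to *Meg3* cluster apart from *Dio3*, were high in RANK+ columns, whereas *Copg2* and *Klf14* were low there beside a high *Mest*.

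Other genes listed as imprinted were called in both directions, and whether they are imprinted in TECs was not measured. Of 50 listed, 48 were tested between CCL21+ and RANK+ TECs, and 11 were called higher in each population, which is 22.9% for each direction beside 15.4% of all genes for each. Their median log2 fold change was 0.04, beside -1.05 for the 9 growth genes, both given without a test. Besides *Slc22a3*, *Ddc* and *Kcnq1*, the largest changes among called genes with a mean of at least 5 CPM (counts per 1000000 counts of the library) in the higher population were those of *Nnat*, a small membrane protein gene of neuroendocrine cells, at 37.9, 42.4 and 52.1 RPKM in RANK+ libraries against 2.21 to 2.52 RPKM in CCL21+ libraries (-4.12 ± 0.18, SE, adjusted p = 4.21e-07 from edgeR), and *Dcn*, which encodes the matrix proteoglycan decorin (-3.60 ± 0.28, SE, adjusted p = 5.71e-06 from edgeR). *Dcn* is also a product of mesenchyme, of whose 12 markers 5 were called higher and 1 lower in RANK+ TECs, and their part in this value was not tested. Between CCL21+ and reporter-negative TECs, 3 were called higher and 1 lower, in all 8.33% beside 8.02% of all genes tested. These calls depended on reporter-negative replicate 2, without which 1 library was left in that population and fewer of all genes tested were called as well. *Gnas*, the gene of the stimulatory G protein, was at 192, 91.6 and 91.5 RPKM in CCL21+ libraries against 41.8 and 52.8 RPKM in reporter-negative libraries (1.41 ± 0.31, SE, adjusted p = 0.018 from edgeR), with the highest value in the library with the highest parathyroid sum. *Snrpn* (0.71) was also higher in CCL21+ TECs and the amino acid transporter gene *Slc38a4* (-0.89) was lower. Between RANK+ and reporter-negative TECs, 10 were called higher and 11 lower, or 20.8% and 22.9% of those tested beside 14.4% and 15.1% of all genes, led by *Slc22a3* (8.24), *Ddc* (5.65), *Nnat* (4.91), *Kcnq1* (4.79) and *Dcn* (4.15). The place of *Ddc* in both comparisons with RANK+ TECs depended on RANK+ replicate 1, without which its RANK+ mean was under 1 RPKM.

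Receptors and binding proteins of the IGF pathway were called in both directions. Of 25 listed genes outside the 9, 24 were tested between CCL21+ and RANK+ TECs, 7 were called higher in CCL21+ TECs and 9 higher in RANK+ TECs, or 29.2% and 37.5% of those tested beside 15.4% of all genes for each direction. *Igf1r*, the receptor that transmits the growth signal of IGF2, was at 43.8, 47.3 and 54.2 RPKM in CCL21+ libraries, 14.9, 15.3 and 14.5 RPKM in RANK+ libraries and 39.2 and 43.3 RPKM in reporter-negative libraries. It was thus low where *Igf2r* was high, with no overlap (log2 fold change of CCL21+ over RANK+ TECs 1.82 ± 0.12, SE, adjusted p = 1.9e-06 from edgeR). The insulin receptor gene *Insr* was higher in RANK+ TECs, at 13.2, 11.9 and 12.4 RPKM against 7.48, 6.22 and 6.49 RPKM in CCL21+ TECs (-0.77 ± 0.10, SE, adjusted p = 0.00015 from edgeR). The receptor substrate gene *Irs2* followed *Igf1r* (1.59, adjusted p = 1.96e-06 from edgeR), as did *Irs1* in this comparison (1.01, adjusted p = 0.000124 from edgeR). Unlike *Igf1r*, *Irs1* was called lower in CCL21+ than in reporter-negative TECs (-0.88, adjusted p = 0.0036 from edgeR).

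The genes for extracellular regulators of IGF were called in both directions as well, with *Igfbp2* and *Stc2* higher in CCL21+ TECs. *Pappa2*, a protease that frees IGF from its binding proteins, was at 32.8, 15.2 and 16.8 RPKM in RANK+ libraries and at most 0.115 RPKM elsewhere (log2 fold change of CCL21+ over RANK+ TECs -8.60 ± 0.54, SE, adjusted p = 1.81e-06 from edgeR). *Igfals*, which stabilizes circulating IGF complexes, was at 16.9, 12.2 and 15.7 RPKM there and at most 0.27 RPKM elsewhere (-6.44 ± 0.38, SE, adjusted p = 1.29e-06 from edgeR). *Stc1*, of the stanniocalcin family that inhibits such proteases (-3.92), and the binding protein gene *Igfbp6* (-4.28) were called in the same direction. In RANK+ libraries *Stc1* was at 5.5, 1.21 and 2.0 RPKM and *Igfbp6* at 15.7, 4.25 and 2.65 RPKM, so that replicate 1 raised both means. The binding protein gene *Igfbp2* was at 147, 99.5 and 87.9 RPKM in CCL21+ libraries, 21, 13.3 and 8.67 RPKM in RANK+ libraries and 56.6 and 68.9 RPKM in reporter-negative libraries (3.10 ± 0.30, SE, adjusted p = 2.32e-05 from edgeR). Its highest value was in CCL21+ replicate 1, the library with the highest parathyroid sum. *Igfbp3* marked reporter-negative TECs, at 19.7 and 29.5 RPKM against 2.34 to 7.11 RPKM in the other libraries, and with *Irs1* it was 1 of the 2 pathway genes called between CCL21+ and reporter-negative TECs, 8.33% of those tested beside 8.02% of all genes (-3.0 ± 0.32, SE, adjusted p = 0.000549 from edgeR). Between RANK+ and reporter-negative TECs, 9 were called higher and 7 lower, or 37.5% and 29.2% of those tested beside 14.4% and 15.1% of all genes, with *Pappa2* (8.04), *Igfals* (7.89), *Pappa* (7.39), *Stc1* (3.33) and *Igfbp5* (2.90) at the top among genes with a mean of at least 5 CPM in the higher population. Below that level, *Igfbp1* was called at 4.91 (adjusted p = 0.000598 from edgeR).

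**Figure D5:**
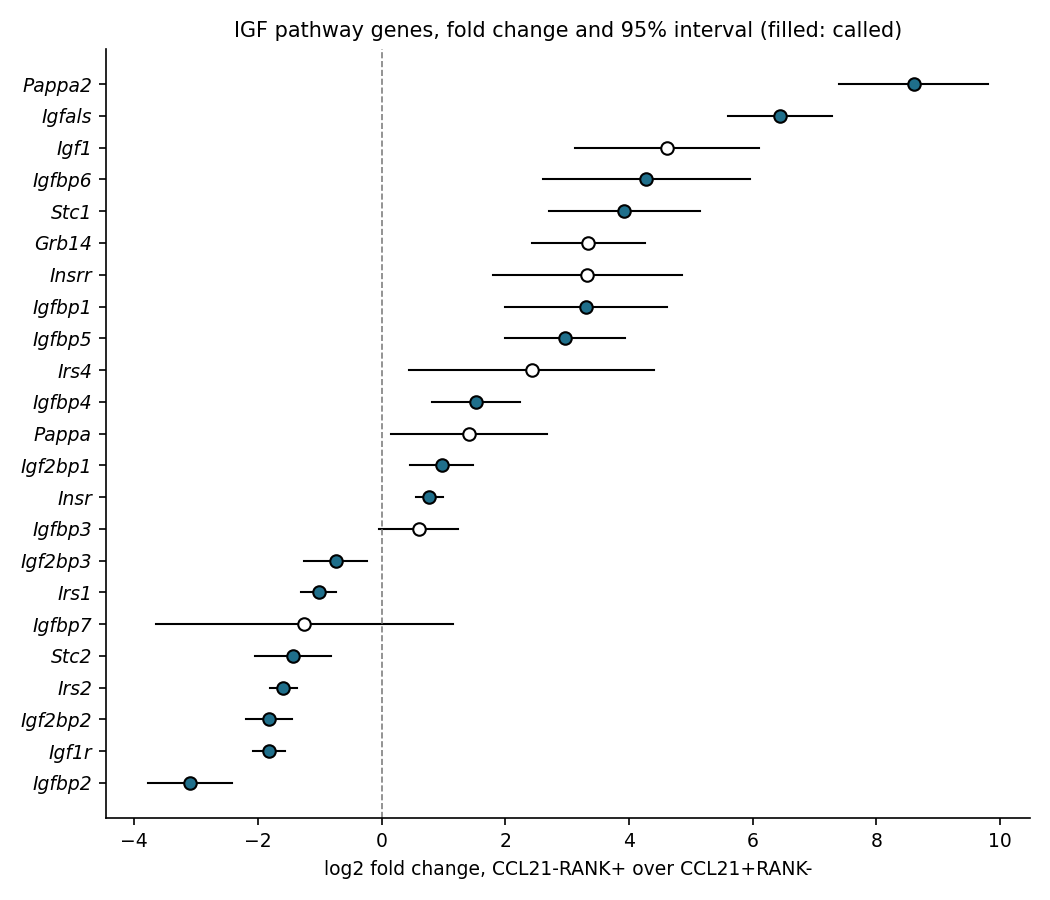
Log2 fold change of IGF pathway genes, RANK+ over CCL21+ TECs (the sign is the reverse of that in the text), with the 95% interval as a line and filled points for genes that passed all 3 thresholds. Genes at 0 in every library of a population are left out, and open points whose interval excludes 0 had a mean of at most 1 RPKM or missed the adjusted p. *Pappa2* and *Igfals* stand at the top and *Igfbp2* at the bottom.

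Regulators of fetal growth programmes and of the imprints themselves were also counted. Of 8 fetal growth regulators, 3 were called between CCL21+ and RANK+ TECs, or 37.5% beside 30.9% of all genes tested, and all 3 are also among the IGF pathway genes counted above. *Igf2bp2* (log2 fold change of CCL21+ over RANK+ TECs 1.82, adjusted p = 1.38e-05 from edgeR) and *Igf2bp3* (0.74, adjusted p = 0.021 from edgeR), which bind *Igf2* mRNA, were higher in CCL21+ TECs, and their relative *Igf2bp1* was higher in RANK+ TECs (-0.97, adjusted p = 0.0054 from edgeR). *Hmga2*, a chromatin protein of fetal progenitors, was at 2.5 and 3.27 RPKM in reporter-negative libraries, 0.386 to 0.723 RPKM in CCL21+ libraries and at most 0.0335 RPKM in RANK+ libraries, and was called higher in reporter-negative TECs than in CCL21+ (-2.51, adjusted p = 0.00178 from edgeR) and RANK+ TECs (-7.25, adjusted p = 1.82e-06 from edgeR). *Mycn* was called lower in reporter-negative TECs than in CCL21+ (1.77, adjusted p = 0.0298 from edgeR) and RANK+ TECs (1.75, adjusted p = 0.00851 from edgeR).

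Of 15 factors that set or keep imprints, 1 was called higher in CCL21+ and 4 in RANK+ TECs, in all 33.3%, which is near the 30.9% of all genes tested. *Zfp57*, which protects methylated imprints in the embryo, was at 1.72, 1.53 and 1.46 RPKM in CCL21+ libraries, 0.207, 0.363 and 0.278 RPKM in RANK+ libraries and 2.06 and 2.99 RPKM in reporter-negative libraries (log2 fold change of CCL21+ over RANK+ TECs 2.58 ± 0.30, SE, adjusted p = 7.01e-05 from edgeR). *Dnmt3l*, the cofactor that helps set methylation in germ cells, was at 16.2, 8.54 and 7.99 RPKM in RANK+ libraries and at most 0.207 RPKM elsewhere (-6.29 ± 0.63, SE, adjusted p = 2.66e-05 from edgeR). The de novo methyltransferase gene *Dnmt3b* (-1.81, adjusted p = 2.72e-05 from edgeR) and *Uhrf1*, which brings the maintenance methyltransferase to replicating DNA (-1.85, adjusted p = 1.08e-05 from edgeR), were also higher in RANK+ TECs. All 8 proliferation markers were higher there too, and the part of cycling cells in these values was not tested. Both *Zfp445* (15.5 to 19.2 RPKM over all libraries), the other known imprint protector, and *Ctcf* (13.3 to 17.5 RPKM), which binds the control region between *H19* and *Igf2*, were present in every library and not called. *Uhrf1* was the 1 factor called between CCL21+ and reporter-negative TECs (-1.13, adjusted p = 0.0031 from edgeR), or 6.67% beside 8.02% of all genes tested. Against reporter-negative TECs, 4 were called higher and *Zfp57* lower (-3.25) in RANK+ TECs, in all 33.3% beside 29.5% of all genes tested.

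The genes whose pattern over the 8 libraries was most like each of the 9 were sought among 10918 genes, by the root mean square difference of log2 CPM (counts scaled by library size) after centring each gene on its mean. This distance grows with the spread of the gene itself, which about its own mean was 0.30 for *Grb10* and 2.76 for *Dlk1* on the log2 scale. *Igf2r* was nearest to *Asl* (0.06) and *Tmed5* (0.07), and *Grb10* to *Wdr36* (0.05) and *Hjurp* (0.07). *Peg3* was most like *Ggt5* and *Rabgap1l* (0.12 each), *Mest* most like *Ube2ql1* (0.14) and the amyloid precursor gene *App* (0.15), and *Plagl1* most like the lysosomal sulfatase gene *Arsb* (0.24) and *Tnfaip8l1* (0.25). *Arsb* was at 75.6, 54.7 and 60.3 RPKM in RANK+ libraries and 5.39 to 6.20 RPKM in the other 5. For *Meg3* the nearest gene was its chromosomal neighbour *Rian* (0.26), followed by *Cyp4f16* (0.28). *H19* was nearest to *Cplx2* (0.30) and *Plekhh2* (0.31), *Igf2* to *Unc13a* (0.42) and *Trf* (0.48), and *Dlk1* to *Acta1* (0.89) and *Mrc1* (1.10), and *H19* and *Igf2* differed from each other by 0.86. *Acta1*, the skeletal muscle actin gene nearest to *Dlk1*, was at 25.7, 2.73 and 3.44 RPKM in RANK+ libraries and 5.48, 0.538 and 0.0118 RPKM in CCL21+ libraries, so that both genes were highest in replicate 1 of these populations. In reporter-negative libraries *Acta1* was at 0.212 and 0.573 RPKM, the reverse of the order of *Dlk1*. *Mrc1* is a macrophage gene. These distances describe the same 8 libraries and carry no test.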

How the data were processed

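RNA was sequenced from 8 libraries of sorted E17 TECs. The authors deposited RSEM 1.3.1 expected counts for each gene, made after STAR 2.5.1 on mm10 per the submitters' processing notes, whereas the methods name CLC Genomics Workbench. Multi-mapped reads were divided among genes by RSEM, so 4.465% to 5.944% of values were not whole. These were rounded and tested in edgeR 4.0.16 (R 4.3.3) with TMM normalization, its default expression filter (21451 genes), 1 quasi-likelihood fit of the 3 population means and Benjamini-Hochberg adjustment over all tested genes. RPKM used library totals and summed exon lengths of GENCODE M21, which lists all 55450 identifiers. *Gm26917* (6.887% to 19.411% of counts) and *Gm42418* (1.473% to 10.734%) lower the RPKM of other genes. No pair of replicates agreed within sampling noise. The fits were also run on simulated counts, in which far fewer genes differed than in these data, so that this run does not test the scaling used here.

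The genes and lists were chosen with earlier results of these data known. Named were all 9 genes, their listed imprinted neighbours within 1 Mb, from each other list the 5 called genes that changed most per comparison (mean of at least 5 CPM in the higher population), and the 2 genes nearest in pattern (mean of at least 5 CPM, no predicted genes). *Insr*, *Irs2*, *Igf1r*, *Stc2*, *Zfp445* and *Ctcf* were named after their values were seen. Floors cover counting error only. The alternatives were other scalings and filters, DESeq2 1.42.0, a replicate block, the 2 populations alone, removal of *Gm26917* and *Gm42418*, the adjusted p alone, ratios of counts, and leaving out each library. Leaving out the 3 libraries numbered 1 was added after seeing the data.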

Additional observations from a re-analysis of the deposited data

How the results depend on the processing

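Over 17 alternative settings the 27 fold changes of the 9 genes gave 456 values, of which 404 kept their direction and side of the test, 15 lost a passed test and 18 newly passed it while keeping their direction, and 19 changed direction. Scaling by the size factors of DESeq2 moved the median log2 fold change of all genes from -0.11 to -0.20 (CCL21+ against RANK+ TECs) and from 0.06 to 0.20 (RANK+ against reporter-negative TECs), and without a filter these were -0.40 and 0.38. *Dlk1* could not be fitted with at least 10 counts in every library. In RANK+ against reporter-negative TECs, *Grb10* turned to 0.09 with those size factors and with DESeq2's Wald test, 0.07 with upper-quartile scaling, 0.00 without a filter, 0.16 with at least 10 counts and 0.25 without the 3 libraries numbered 1. That last setting also turned *Igf2* in CCL21+ against RANK+ TECs (0.42), and *H19* (-0.40) and *Dlk1* (-0.75) in CCL21+ against reporter-negative TECs. Leaving out each library gave *Igf2* -1.20 to 0.51 in CCL21+ against RANK+ TECs. In CCL21+ against reporter-negative TECs it gave *H19* -0.32 to 0.47, *Dlk1* -1.62 to 1.73 and *Meg3* -0.68 to 0.01, and in RANK+ against reporter-negative TECs *H19* -1.16 to 0.13 and *Grb10* -0.17 to 0.17. The ratio of *H19* to *Igf2* kept its order of populations under every setting in which it was computed.

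Counts of called genes in CCL21+ against reporter-negative TECs were the least stable. Over all genes tested they also varied, with 1720 of 21451 called as reported, 2087 with DESeq2's Wald test and 2453 at the adjusted p alone. They were 2017 of 31644 without a filter, 1852 of 14615 with at least 10 counts, and 2129 of 17925 with only the libraries compared. Without RANK+ replicate 1 they were 2066 of 20345. Without either reporter-negative library, which leaves 1 in that population, fewer of all genes tested were called. The 9 growth genes gave 2 calls when only the libraries compared were fitted and 0 to 2 when each library was left out. Other imprinted genes gave 4 as reported, 8 with DESeq2's Wald test, with at least 10 counts or with only the libraries compared, 9 without a filter, 7 at the adjusted p alone, and 0 to 8 when each library was left out, with 0 without reporter-negative replicate 2 and 8 without RANK+ replicate 1. The IGF pathway gave 2 as reported, 5 with DESeq2's Wald test, without a filter, with only the libraries compared or at the adjusted p alone, 4 with at least 10 counts, and 2 to 5 when each library was left out, the most without RANK+ replicate 1. Fetal growth regulators gave 1 with at least 10 counts or without the 3 libraries numbered 1, and 1 to 2 when each library was left out. In CCL21+ against RANK+ TECs, fetal growth regulators gave 6 at the adjusted p alone and imprint maintenance factors 3 with at least 10 counts. In RANK+ against reporter-negative TECs, the 9 growth genes gave 3 to 6 and fetal growth regulators 3 to 5 when each library was left out, other imprinted genes 32 at the adjusted p alone, and fetal growth regulators and imprint maintenance factors 3 each with at least 10 counts, with fetal growth regulators also at 3 without the 3 libraries numbered 1. The causes were not tested.

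With the replicate number as a block, *Igf2* in RANK+ against reporter-negative TECs was 1.77 (adjusted p = 0.074 from edgeR), *Dlk1* in CCL21+ against RANK+ TECs was -4.07 (adjusted p = 0.00119 from edgeR), the IGF pathway gave 4 calls and imprint maintenance factors 2 in CCL21+ against reporter-negative TECs, and 6617 genes were called in CCL21+ against RANK+ TECs. Deviations of same-numbered CCL21+ and RANK+ libraries correlated at 0.1257, 0.0485 and 0.0707 across genes, and each of these libraries correlated best with its own number in the other population, a hint from the data and not from the design. Not every correlation was over 0.1, and those of same-numbered pairs with reporter-negative libraries were -0.117 to -0.0411, where 2 libraries deviate in mirror image, so that a pairing was not established.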
